A study of Mus musculus with 24 samples.

Results

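Tau (Mapt), 5 further microtubule-associated proteins (Map1a, Map1b, Map2, Map4 and Map6) and the 4 stathmins (Stmn1 to Stmn4) were followed in cholinergic neurons of the mouse basal forebrain. These 10 genes were chosen by symbol, matched through GENCODE M21 to the Ensembl identifiers of the count table, and all 10 were among the 19967 genes tested, of 55414 identifiers in all. Each library held RNA of about 500 neurons from the medial septum and the vertical diagonal band, captured by laser after immunostaining for choline acetyltransferase, from a male mouse of about 6 months. The Ts65Dn mouse is a segmental trisomy used as a model of Down syndrome, and none of the 10 genes lies on the chromosomes from which its extra segment derives; 2N mice are the disomic animals of the same colony, born to Ts65Dn dams mated with C57Bl/6J Eicher × C3H/HeSnJ F1 males. By the labels of genotype and treatment there were 6 2N and 6 Ts65Dn mice from dams on control chow (1.1 g/kg choline chloride), and 4 2N and 8 Ts65Dn mice from supplemented dams (5.0 g/kg). The design text states 6 mice per group. In the series table, whose columns of each other group stand together, supplemented Ts65Dn replicates 2 and 5 stand among the columns of supplemented 2N, and moving them there would give 6 and 6. Groups follow the labels here, and this doubt touches every value of the 2 supplemented groups. Map2, Map6 and Stmn1 are also given without these 2 libraries. Supplementation reached the offspring through the dam from conception to weaning, and every animal ate the control diet afterwards, so adult animals of all 4 groups were on the same chow when sampled.

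Microtubules are polymers of tubulin dimers that carry axonal and dendritic transport. Tau and the other microtubule-associated proteins bind along the polymer and stabilise or space it, tau chiefly in axons and Map2 in dendrites, while stathmins bind free tubulin dimers and favour disassembly until phosphorylation releases the tubulin. Aggregated, hyperphosphorylated tau is a hallmark of Alzheimer disease, which also develops in people with Down syndrome, and basal forebrain cholinergic neurons are among the cells affected in both.

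Some of the 10 genes belong to families related by sequence, which bears on how short reads can be assigned to them. Mapt, Map2 and Map4 share the microtubule-binding repeats. The 4 stathmins share the stathmin domain, which binds tubulin. A 90-base stretch of that domain is shown for each from its coding sequence (GENCODE M21 transcripts, 5′ to 3′), with capitals for the 58 of 90 bases (64.4%) that are the same in all 4.

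Stmn1 (chromosome 4, coding bases 229 to 318): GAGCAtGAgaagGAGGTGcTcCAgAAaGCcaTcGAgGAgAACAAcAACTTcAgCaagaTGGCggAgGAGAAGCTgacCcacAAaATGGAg

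Stmn2 (chromosome 3, coding bases 331 to 420): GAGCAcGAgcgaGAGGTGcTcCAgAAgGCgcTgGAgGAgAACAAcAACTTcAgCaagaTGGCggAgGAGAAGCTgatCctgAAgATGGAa

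Stmn3 (chromosome 2, coding bases 334 to 423): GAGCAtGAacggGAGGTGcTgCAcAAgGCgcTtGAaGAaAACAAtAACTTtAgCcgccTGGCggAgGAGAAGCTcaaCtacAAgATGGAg

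Stmn4 (chromosome 14, coding bases 442 to 531): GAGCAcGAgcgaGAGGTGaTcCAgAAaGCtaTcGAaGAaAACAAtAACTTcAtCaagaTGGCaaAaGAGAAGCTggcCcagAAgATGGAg

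Against Stmn1, Stmn2 had 77 of the 90 bases in common, Stmn4 74 and Stmn3 69. Over the aligned coding sequences, identity was 67.2% to 72.1% between stathmins. The differing bases are spread through the windows, and no run of 50 bases, the read length, was shared between any of the 10 genes. Towards genes outside the 10, Stmn1 shared the most. Of its 50-base runs 18.9% also occur elsewhere, nearly all of them (351 of 369) in the gene model Gm11223. Its expected count was not a whole number in any of the 24 libraries (nor was that of Map2, with 0.166% of its runs shared). Reads of Stmn1 that match both are therefore divided by an estimate, and its values carry that uncertainty. Of the others, Map1a shared 1.83% of its runs (with Ppip5k1), Stmn2 0.893% and Map4 0.688%, and Mapt, Map1b, Map6, Stmn3 and Stmn4 shared none. Sharing no such run did not mean whole counts: those of Map1b were not whole in 17 libraries, and those of Map1a in 15.

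Library depth ran from 4688258 to 13443438 counts. Control-diet Ts65Dn replicate 3 and supplemented Ts65Dn replicate 7 were of low complexity, with 13125 and 13164 genes detected. Mitochondrial rRNA took 13.5% to 29.3% of the counts in the 16 libraries outside supplemented Ts65Dn, and 29.0% to 43.3% in 6 libraries of that group, whereas its replicates 2 (17.8%) and 5 (21.2%) lay in the range of the other groups. Chat, which encodes the enzyme used to recognise the cells, was under 1 CPM, the count scaled by library size, in 6 libraries and at most 63.2 CPM. The summed level of 12 astrocyte markers was 2056 to 3191 CPM in every library and that of 12 oligodendrocyte markers 735.5 to 4079 CPM, against 51.6 to 533.9 CPM for 11 tested cholinergic markers, so RNA of neighbouring cells was present throughout. In such samples fewer cells of a type and less RNA per cell cannot be told apart.

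None of the 10 genes passed the test in any comparison (edgeR quasi-likelihood F test, Benjamini-Hochberg adjustment over all 19967 genes, called at an adjusted p under 0.05). The background was low too. Of all tested genes, 0.336% were called between Ts65Dn and 2N on the control diet, 0.18% between the genotypes on the supplemented diet, 0.13% between the diets in Ts65Dn, 0.00501% between the diets in 2N, 0.00501% for the interaction of genotype and diet, and 1.08% for any difference among the 4 groups. At an unadjusted p under 0.05 stood 4, 3, 4, 0 and 0 of the 10 genes in the first 5 of these, where 10.9%, 9.49%, 9.62%, 6.92% and 8.43% of all genes did. Over the other settings run, the first 3 of these counts ran from 0 to 5, from 1 to 7 and from 1 to 5. For genotype on the control diet the count was 1 without control-diet Ts65Dn replicate 3. With a score of astrocyte and oligodendrocyte markers as a covariate it was 0, and 0 of 19967 genes were called. In direction, 9 of 10 had a negative log2 difference in Ts65Dn on the control diet (50.8% of all genes), with a median of −0.28 where all genes had −0.02. On the supplemented diet 7 of 10 were negative in Ts65Dn (45.9% of all genes), with a median of −0.19 beside 0.09 for all genes. For supplementation, 6 of 10 were negative in Ts65Dn (48.0% of all genes, medians −0.03 and 0.04) and 7 of 10 in 2N (53.2% of all genes, medians −0.10 and −0.06). The interaction was negative for 5 of 10 (45.6% of all genes). Groups that do not overlap at all, every library of one above every library of the other, were seen for 1 of the 10 genes, Map6, between the genotypes on the supplemented diet. Such separation held for 0.631% of all genes between the genotypes on the control diet, 0.606% on the supplemented diet, 0.0701% between the diets in Ts65Dn and 1.34% in 2N. On the log2(TPM + 1) scale all 10 were negative in Ts65Dn on the supplemented diet, from −2.37 for Stmn1 to −0.39 for Stmn3, and none was called (limma adjusted p from 0.0718 for Map6 to 0.713 for Stmn3), where the median of all genes was −0.40. Each genotype comparison shares 1 group of libraries with each diet comparison, so their values are not independent.

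**Figure D1:**
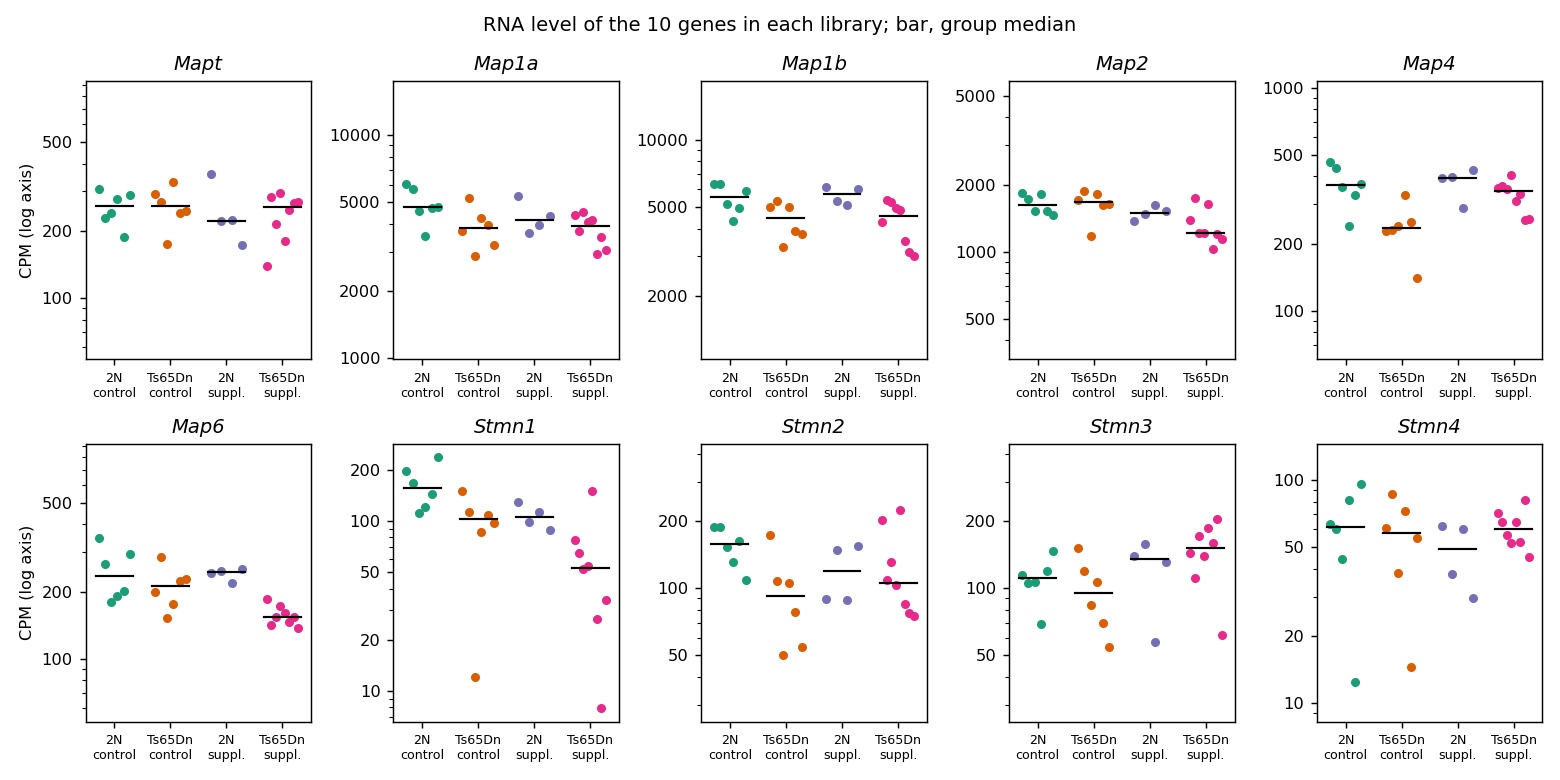
CPM of each of the 10 genes in every library (points, log axis) by group, with the group median as a bar. Map6 in supplemented Ts65Dn lies below every supplemented 2N library, and Stmn1 has the widest spread, from 7.92 to 237 CPM.

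Per length, Map1b had the highest mean level in every group. Mean levels over the 24 libraries in TPM, the RSEM unit that divides reads by transcript length, were 810.6 for Map1b, 510.0 for Map2, 458.7 for Map1a, 225.6 for Stmn1, 197.6 for Mapt, 114.7 for Stmn3, 106.9 for Map6, 101.5 for Map4, 83.1 for Stmn4 and 69.0 for Stmn2. Within single libraries Map1b was above Map2 in 21 of 24 and Map1a above Stmn1 in 23 of 24, but Map2 was above Map1a in only 16, with 4 of 8 in supplemented Ts65Dn, where the mean of Map1a was the higher (327.1 and 319.4). Lower neighbours did not separate: Stmn1 exceeded Mapt in 12 of 24 libraries, Map6 exceeded Map4 in 12, Stmn3 exceeded Map6 in 13 and Stmn4 exceeded Stmn2 in 15. In control-diet 2N the lowest mean was that of Stmn4 (81.3) and not of Stmn2 (105.7). By read number, where long transcripts count more, Map1b ranked 8 and Map1a 9 among the 19967 genes, and Stmn4, the lowest of the 10, ranked 2553.

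**Figure D2:**
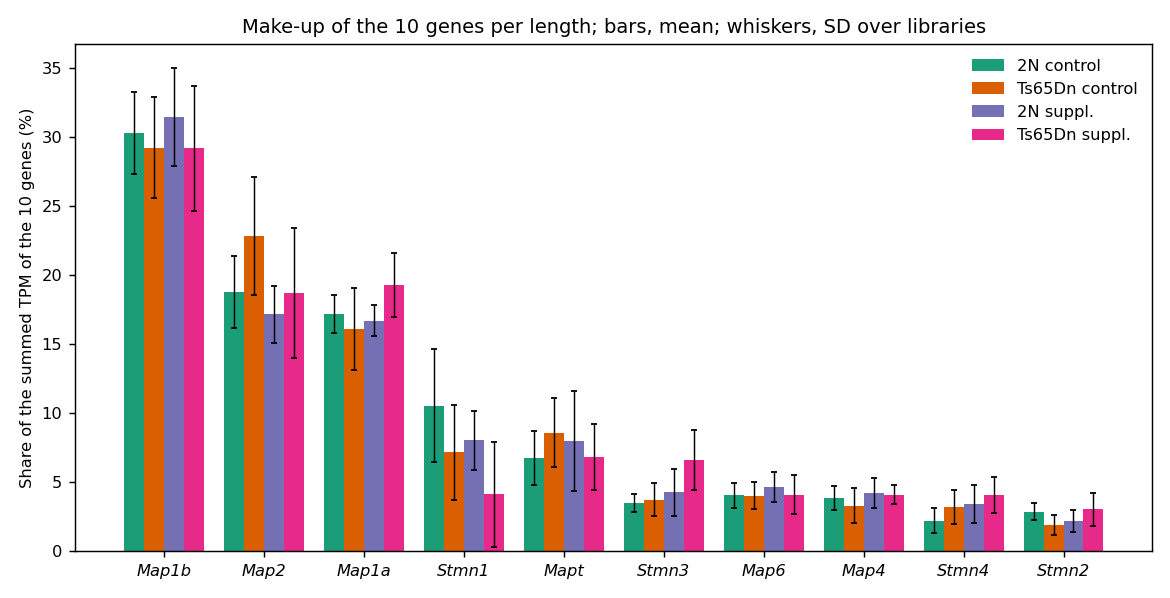
Share of each gene in the summed TPM of the 10 (percent; bars, group means; whiskers, SD over libraries; n = 6, 6, 4 and 8). Map1b took about the same share in all 4 groups, and Stmn1 went from 10.5% in control-diet 2N to 4.09% in supplemented Ts65Dn.

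As shares of the summed TPM of the 10, Map1b held 30.3% ± 2.98 (SD, n = 6) in 2N on the control diet and 29.2% ± 4.54 (SD, n = 8) in supplemented Ts65Dn. The 4 stathmins together held 19.1% ± 4.31, 15.9% ± 4.08, 17.9% ± 2.65 and 17.8% ± 4.85 in 2N and Ts65Dn on the control diet and then 2N and Ts65Dn with supplementation. The group total of the stathmins thus had means of 15.9% to 19.1%, and its library values overlapped between all 4 groups. Within it, Stmn1 was 10.5% ± 4.10 of the 10 in control-diet 2N and 4.09% ± 3.83 in supplemented Ts65Dn, whereas Stmn3 was 3.47% ± 0.648 and 6.63% ± 2.18. The larger share of Stmn3 was not a higher level in TPM, which was 127.4 ± 29.5 in control-diet 2N and 108.1 ± 46.1 in supplemented Ts65Dn. The summed TPM of the 10 was 3690 ± 733.4 and 1740 ± 886.6. In CPM the mean of Stmn3 was the higher in supplemented Ts65Dn, with 147.2 ± 45.2 against 110.2 ± 25.0 in control-diet 2N, so its direction depends on the scale.

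Map1a and Map1b encode large proteins that are cut into a heavy and a light chain; Map1b leads in growing axons and Map1a in mature dendrites. In control-diet 2N, Map1b had a lowest, median and highest level of 4324, 5528 and 6339 CPM, against 3314, 4453 and 5312 in control-diet Ts65Dn. All 6 Ts65Dn libraries lay below the 2N mean and 3 of them below the lowest 2N library. The fitted log2 difference was −0.33 (SE 0.15, edgeR adjusted p = 0.38). With supplementation the 4 Map1b values of 2N were 6178, 5334, 5129 and 6047 CPM, and Ts65Dn ran from 3014 through a median of 4560 to 5395. Here 6 of 8 Ts65Dn libraries lay under the lowest 2N library, with a difference of −0.40 (SE 0.15, edgeR adjusted p = 0.425). Map1a was 1.26-fold lower in Ts65Dn than in 2N on the control diet (−0.34, SE 0.15, adjusted p = 0.358), with medians of 3830 and 4745 CPM, and −0.19 (SE 0.16) on the supplemented diet. Between the diets, the fitted differences of both genes were −0.18 to 0.04 in either genotype. When genes with low counts were kept in the fit, Map1a (−0.36, adjusted p = 0.0047) and Map1b (−0.35, adjusted p = 0.0023) were called on the control diet and Map1b (−0.37, adjusted p = 0.0016) on the supplemented one, so these calls turn on the filter and not on the size of the difference.

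General neuronal markers lay on the same side as Map1a and Map1b. The summed level of 10 of 10 such markers, Snap25 and Syt1 among them, was 3697 to 4666 CPM (median 4160) in 2N and 2724 to 4084 (median 3319) in Ts65Dn, both on the control diet. It was 3413 to 4566 (median 4161) in supplemented 2N and 2287 to 4226 (median 3226) in supplemented Ts65Dn. None of these markers was at 0 in any library, and their part in the differences of Map1a and Map1b was not tested. The lower side was not particular to neurons. On the control diet the astrocyte median was 2416 CPM in Ts65Dn against 2894 in 2N, and the oligodendrocyte median 2815 against 3606. Medians of oligodendrocyte precursor, microglia and glutamatergic neuron markers were higher in Ts65Dn there. On the supplemented diet the oligodendrocyte median was higher in Ts65Dn (3362 against 2900). Within the animals whose identifier begins with 17, 4 of each genotype on the control diet, the difference was −0.28 for Map1a and −0.33 for Map1b. Low-complexity control-diet Ts65Dn replicate 3 is among these animals.

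**Figure D3:**
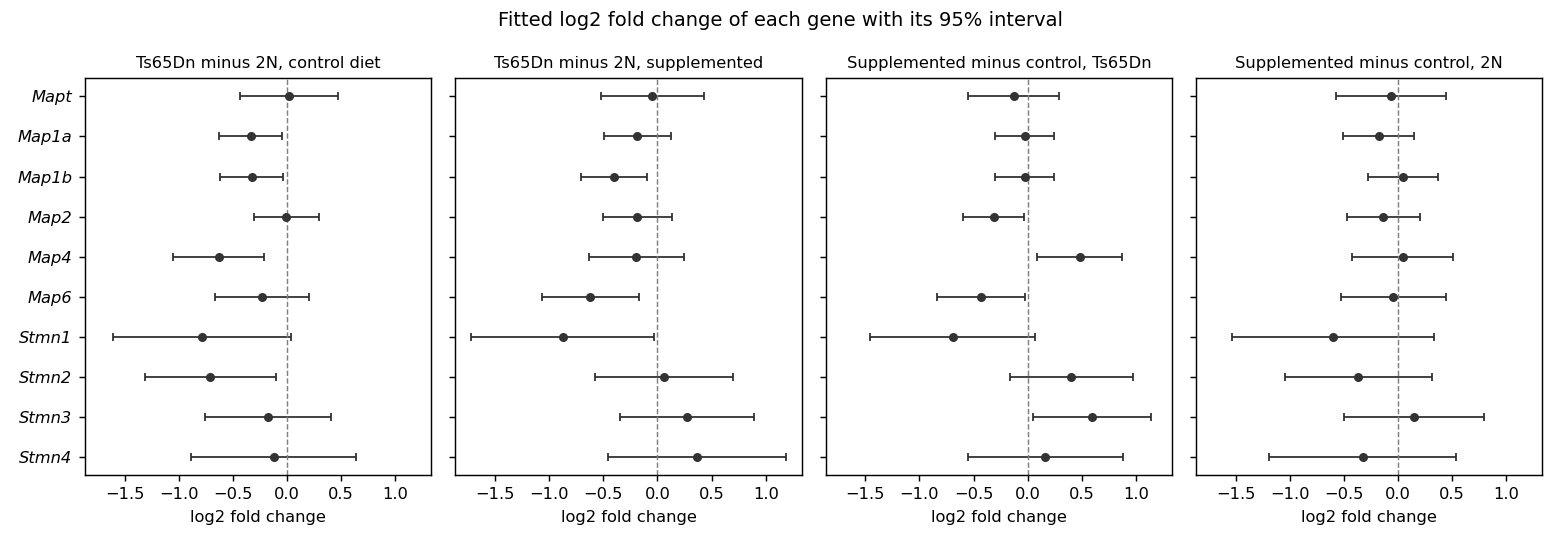
Fitted log2 fold change (points) of each gene with its 95% interval (whiskers) in 4 comparisons, with 0 as a dashed line. Intervals of Stmn1 and Stmn4 are the widest, those of Map1a, Map1b and Map2 the narrowest, and none of the 40 differences passed the adjusted threshold.

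In CPM, Mapt showed no difference beyond the spread between libraries. Its lowest, median and highest values were 188, 259 and 308 CPM in 2N and 175, 257 and 330 in Ts65Dn, both on the control diet, and 138, 257 and 296 in supplemented Ts65Dn. The 4 supplemented 2N libraries had 361, 220, 224 and 173 CPM. All groups overlapped. The fitted log2 difference between genotypes was 0.02 on the control diet, with a 95% interval from −0.43 to 0.47, and −0.05 (−0.52 to 0.43) on the supplemented diet. Between diets it was −0.13 (−0.55 to 0.29) in Ts65Dn and −0.06 (−0.57 to 0.44) in 2N. These intervals hold for the count fit. In TPM the means of Mapt were 247.3 ± 77.5 and 212.0 ± 86.8 in 2N and Ts65Dn on the control diet, 263.1 ± 129.3 (SD, n = 4) in supplemented 2N and 116.7 ± 77.1 in supplemented Ts65Dn, where it ran from 39.1 to 298 and overlapped the other groups. On the log2(TPM + 1) scale supplemented Ts65Dn was at −1.25 from supplemented 2N (limma adjusted p = 0.177) and at −0.93 from control-diet Ts65Dn (limma adjusted p = 0.417), where the medians of all genes were −0.40 and −0.14. TPM divides by the transcript length, which is described for Mapt further on, and the part of length in this gap between the scales was not tested.

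Map2, the dendritic member, was also alike in the genotypes on the control diet (−0.01, 95% interval −0.31 to 0.30), with medians of 1627 CPM in 2N and 1671 in Ts65Dn. In supplemented Ts65Dn the lowest, median and highest libraries had 1027, 1212 and 1736 CPM, against 1182, 1671 and 1873 without supplementation. In 6 of 8 supplemented libraries the level was below the control mean; the fitted difference was −0.31 (SE 0.14, edgeR adjusted p = 0.445). Replicates 2 (1736 CPM) and 5 (1641 CPM), the pair with the low mitochondrial rRNA share, were the highest of the 8, and without them the difference was −0.46 (adjusted p = 0.192). With the mitochondrial rRNA share as a covariate it was −0.09 (adjusted p = 0.918).

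Map4, the member of this family found in most cell types, had its largest difference on the control diet. It had a lowest, median and highest level of 240, 364 and 462 CPM in control-diet 2N and of 141, 235 and 328 in control-diet Ts65Dn. All 6 Ts65Dn libraries lay below the 2N mean, 3 of them below every 2N library, and the groups overlapped. Its log2 difference of −0.63 (SE 0.21) had the lowest p of the 10 genes in that comparison (edgeR adjusted p = 0.201), and within identifier prefix 17 it was −0.42. Supplemented 2N libraries had 391, 397, 289 and 429 CPM, and supplemented Ts65Dn 256, 343 and 406. In Ts65Dn all 8 supplemented libraries were above the control-diet mean and 5 above the highest control-diet library. That difference was 0.48 (SE 0.20, adjusted p = 0.361), and in 2N it was 0.04 (SE 0.24). The interaction, which tests whether the diet acted differently in the genotypes, was 0.44 (SE 0.31, adjusted p = 0.828). The diet difference in Ts65Dn kept its sign on every count-based scale but was −0.16 on the TPM scale, where the median of all genes was itself shifted to −0.14.

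Map6 encodes the stable tubule only protein, which protects microtubules from cold and drugs. Its values separated by genotype on the supplemented diet. Supplemented 2N libraries had 242, 247, 219 and 252 CPM, and the 8 supplemented Ts65Dn libraries ran from 137 through a median of 154 to 185. By the labels, every Ts65Dn library was below every 2N library, as in 0.606% of all tested genes. The level was 1.53-fold lower, a log2 difference of −0.62 (SE 0.23, 95% interval −1.07 to −0.17), which did not pass the test (edgeR adjusted p = 0.412). On the control diet the genotypes overlapped, with medians of 234 CPM in 2N and 211 in Ts65Dn and a difference of −0.23 (SE 0.22, adjusted p = 0.855).

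In Ts65Dn, all 8 supplemented libraries had less Map6 than the mean of their control-diet counterparts (−0.43, SE 0.21, adjusted p = 0.484), and in 2N the diet difference was −0.04 (SE 0.25). The interaction was −0.39 (SE 0.32, adjusted p = 0.894). Supplemented Ts65Dn replicates 2 and 5 had 141 and 160 CPM of Map6, within the range of the other 6. If these 2 were counted as supplemented 2N, the genotypes would overlap on that diet. A fit with them in that group was not run. The genotype difference on the supplemented diet was −0.60 without those 2 libraries, −0.58 with the mitochondrial rRNA share as a covariate and −0.59 within identifier prefix 16, where each genotype has 2 libraries. Leaving out any 1 library gave −0.66 to −0.59. On the log2(TPM + 1) scale it was −1.28 (limma adjusted p = 0.0718), where the median of all genes was −0.40. Pooled over the 4 groups, Map6 was the steadiest of the 10 for its level. Its within-group SD was 0.27 on the log2 scale, smaller than that of all but 2.1% of 532 genes of like level. Its steadiness lay in the supplemented groups: the SD of CPM was 6.07% of the mean in 2N (n = 4) and 10.2% in Ts65Dn there. On the control diet it was 27.25% in 2N and 22.2% in Ts65Dn.

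Stmn1, the cytosolic stathmin, had the widest spread and the lowest p over all 4 groups together (edgeR adjusted p = 0.157). In control-diet 2N its lowest, median and highest levels were 112, 155 and 237 CPM, and in control-diet Ts65Dn 12.1, 102 and 150. Supplemented 2N had 130, 98.2, 113 and 87.9 CPM. The 8 supplemented Ts65Dn libraries, replicates 1 to 8, had 76.8, 64.6, 52.2, 54.2, 151, 26.5, 7.92 and 34.1 CPM. Of these, 7 lay below every supplemented 2N library and replicate 5 above all of them.

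The fitted log2 differences of Stmn1 between Ts65Dn and 2N were −0.78 (SE 0.42, adjusted p = 0.522) on the control diet and −0.87 (SE 0.43, edgeR adjusted p = 0.522) with supplementation, a 1.83-fold lower level. Between diets they were −0.69 (SE 0.39, adjusted p = 0.625) in Ts65Dn and −0.60 (SE 0.47, adjusted p = 1) in 2N. The interaction was −0.09 (SE 0.61). Its within-group SD of 1.01 on the log2 scale was larger than that of 98.1% of 1257 genes of like level, so the intervals are wide (−1.72 to −0.03 for the genotypes on the supplemented diet).

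The level of Stmn1 moved with the mitochondrial rRNA share and with single libraries. In the 7 libraries where that share was 29.0% or more, Stmn1 was 7.92 to 76.8 CPM, and in the other 17 it was 64.6 to 237, with 1 of these at or under 76.8. Map6 was lower in the same 7 libraries, with 137 to 185 CPM (median 153), against 141 to 349 (median 223) in the other 17, of which 4 were at or under 185. With the share as a covariate, the differences in supplemented Ts65Dn were 0.33 from control-diet Ts65Dn (adjusted p = 0.879) and 0.01 from supplemented 2N (adjusted p = 1), whereas the control-diet genotype difference was −1.12 (adjusted p = 0.143). Since 6 of those 7 libraries are supplemented Ts65Dn, the share and the group cannot be told apart by this fit. Without supplemented Ts65Dn replicates 2 and 5 the differences were −1.17 from control-diet Ts65Dn (adjusted p = 0.218) and −1.35 from supplemented 2N (adjusted p = 0.181). When the 2 low-complexity libraries were left out as well, Stmn1 was called between the diets in Ts65Dn (−1.16, adjusted p = 0.0323) and was −1.12 from supplemented 2N (adjusted p = 0.0602). Both settings without replicates 2 and 5 were chosen after seeing the data. In the latter, 173 of 19355 genes were called between the diets in Ts65Dn, against 26 of 19967 in the main fit. Within identifier prefix 17, which holds low-complexity control-diet Ts65Dn replicate 3 (12.1 CPM), the control-diet genotype difference was −1.01. Within prefix 16, with 2 libraries a group, the supplemented Ts65Dn differences were −2.90 from control-diet Ts65Dn and −2.50 from supplemented 2N. The supplemented Ts65Dn libraries of prefix 16 are replicates 6 and 7, with 26.5 and 7.92 CPM, the latter of low complexity. These values thus rest on libraries flagged above.

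**Figure D4:**
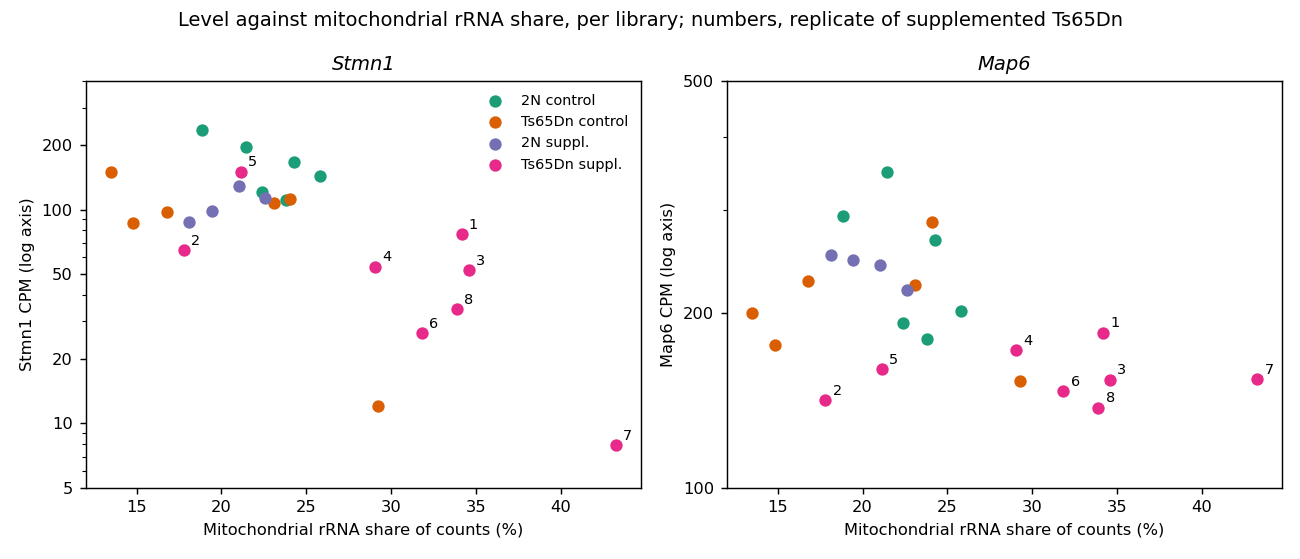
Stmn1 (left) and Map6 (right) CPM on a log axis against the percentage of counts from mitochondrial rRNA, 1 point per library, with replicate numbers for supplemented Ts65Dn. Stmn1 is 7.92 to 76.8 CPM where the share is 29.0% or more, and Map6 is 137 to 185 CPM there. Replicates 2 and 5 of supplemented Ts65Dn, at lower shares, have 64.6 and 151 CPM of Stmn1 and 141 and 160 CPM of Map6.

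Stmn2, Stmn3 and Stmn4 carry a membrane anchor that Stmn1 lacks and are largely neuronal; Stmn2 is known from growth cones and axon regrowth. Stmn2 had a lowest, median and highest level of 108, 159 and 189 CPM in control-diet 2N and of 50.2, 92.1 and 174 in control-diet Ts65Dn. In 5 of 6 Ts65Dn libraries it was below the lowest 2N library, replicate 1 being the exception, with a log2 difference of −0.71 (SE 0.31, edgeR adjusted p = 0.35). Within identifier prefix 17, which holds low-complexity control-diet Ts65Dn replicate 3 (50.2 CPM), this was −0.94. Without the libraries in which Chat was under 1 CPM it was −0.28 (edgeR adjusted p = 0.943). On the supplemented diet the genotypes overlapped (2N 89.4, 149, 88.6 and 155 CPM; Ts65Dn 74.9, 106 and 223), with a difference of 0.06 (SE 0.33). The interaction of 0.77 (SE 0.45, adjusted p = 0.709) was the largest of the 10 and did not pass.

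Stmn3 pointed the other way with diet in Ts65Dn. Control-diet Ts65Dn libraries had a lowest, median and highest level of 54.6, 95.4 and 151 CPM, and supplemented ones 61.5, 151 and 205. In 7 of 8 supplemented libraries the level was above the control mean and in 4 above every control library; the difference was 0.59 (SE 0.28, edgeR adjusted p = 0.476), and 0.20 (adjusted p = 0.93) without the libraries with Chat under 1 CPM. In 2N it was 0.14 (SE 0.33). Stmn1 and Stmn3 thus had fitted diet differences of opposite sign in the same Ts65Dn libraries, neither past the threshold; the difference between the genes was not tested. Stmn4, the lowest of the 10 by read number, ran from 12.4 to 96.2 CPM in control-diet 2N alone, and its differences of −0.33 to 0.36 had SEs of 0.37 to 0.44.

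RSEM also gives each gene a mean transcript length weighted by the estimated abundance of its isoforms, a trace of isoform use. The mean length of Mapt was 1403 ± 233.8 bases in 2N and 1380 ± 366.0 in Ts65Dn on the control diet. With supplementation it was 1291 ± 304.0 (SD, n = 4) and 1837 ± 310.7. The last group ran from 1372 to 2230 bases and overlapped all others. On a log2 scale it was longer by 0.45 (SE 0.17, limma adjusted p = 0.412) than control-diet Ts65Dn and by 0.52 (SE 0.20, limma adjusted p = 0.412) than supplemented 2N. Map4 was also longer in supplemented than in control-diet Ts65Dn, with means of 4011 ± 338.0 and 3242 ± 678.4 bases (0.33, SE 0.13, limma adjusted p = 0.412). For Stmn4 the lowest p was between diets in 2N, 931.1 ± 223.4 bases on the control and 593.3 ± 73.9 (SD, n = 4) on the supplemented diet (−0.62, SE 0.24, limma adjusted p = 0.786). None of the 9 genes with a varying length was called, nor was any of the 4478 genes tested (0.0% in each comparison). At an unadjusted p under 0.05 stood 7.28% of these genes for genotype on the control diet, 9.04% for diet in Ts65Dn, 5.47% for diet in 2N, 9.29% for genotype on the supplemented diet and 6.68% for the interaction. Stmn3 has 1 transcript, of 1136 bases.

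**Figure D5:**
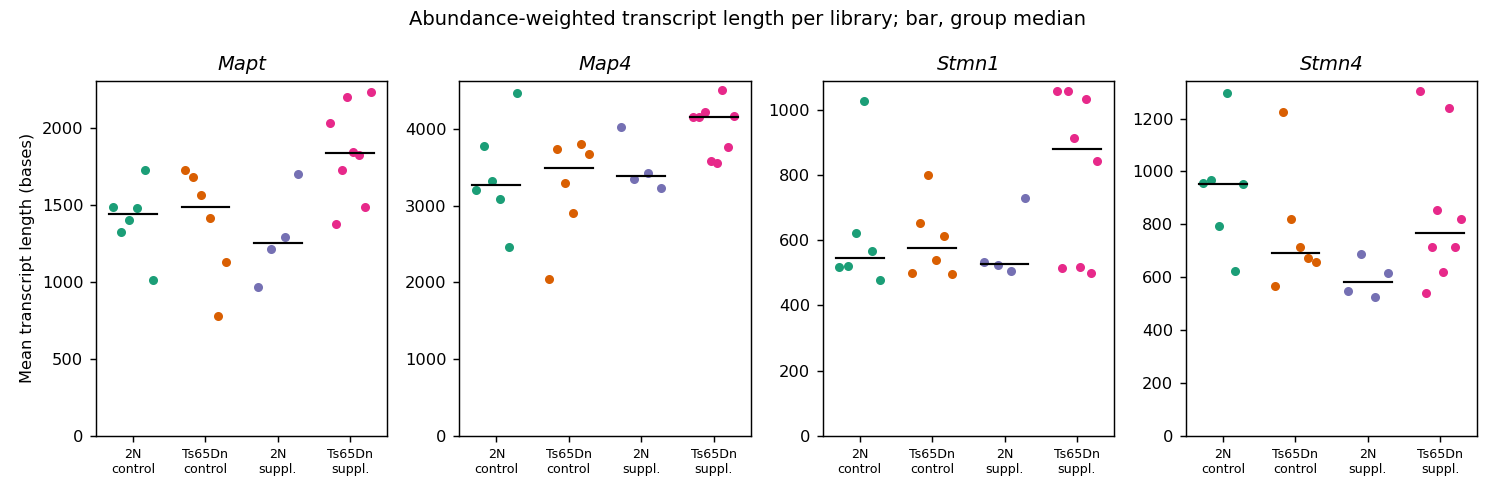
Abundance-weighted transcript length in bases for Mapt, Map4, Stmn1 and Stmn4, 1 point per library, with the group median as a bar. Mapt spans 1372 to 2230 bases in supplemented Ts65Dn and 776 to 1724 bases in the other groups, with overlap.

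Of the partners of these proteins, none was called either. Tubulin genes, which encode the subunits of the polymer, were lower in Ts65Dn on the control diet in 14 of 14 cases, 0 past the threshold, with a median log2 difference of −0.41. Of all tested genes 50.8% were lower there (median −0.02), and 0.336% were called. Tuba1a, the main neuronal alpha-tubulin gene, had 86.9 to 318 CPM in control-diet 2N and 43.5 to 163 in control-diet Ts65Dn (−0.80, SE 0.30, edgeR adjusted p = 0.233). On the supplemented diet 8 of 14 were lower in Ts65Dn (median −0.13), beside 45.9% of all genes (median 0.09). Tuba1a was at −0.17 (SE 0.31) in that comparison. Between the diets, 11 of 14 tubulin genes were lower with supplementation in 2N (median −0.37) and 6 of 14 in Ts65Dn (median 0.06). For all genes the shares were 53.2% and 48.0% (medians −0.06 and 0.04).

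Kinases and phosphatases of tau numbered 26, of which 14 were lower in Ts65Dn on the control diet, 18 with supplementation in Ts65Dn, 15 with supplementation in 2N and 15 in Ts65Dn on the supplemented diet, 0 called in each. Of all genes, 50.8%, 48.0%, 53.2% and 45.9% were lower in these comparisons, and 0.336%, 0.13%, 0.00501% and 0.18% were called. Ttbk2, a tau-tubulin kinase, had the lowest p on the control diet (−0.999, SE 0.36, adjusted p = 0.218), and Cdk5r1, the activator of Cdk5, in the diet comparison of Ts65Dn (−0.85, SE 0.35, edgeR adjusted p = 0.332). Among 54 tested of 58 other microtubule-binding and regulating genes, 30 were lower in Ts65Dn on the control diet (50.8% of all genes). With supplementation in Ts65Dn, 29 of the 54 were lower (48.0% of all genes). Map7d1, which recruits kinesin to microtubules, had 346 to 508 CPM in control-diet 2N and 436 to 845 in control-diet Ts65Dn (0.59, SE 0.21, edgeR adjusted p = 0.216). Dclk2, a doublecortin-like kinase, had the lowest p of that list with diet in Ts65Dn (0.95, SE 0.35, edgeR adjusted p = 0.267). Of 8 tested stathmin kinases and partners, 5 were lower in Ts65Dn on the control diet (50.8% of all genes), with Pak1 at −0.68 (SE 0.34, edgeR adjusted p = 0.466).

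The remaining partner genes with the lowest p of their list had adjusted p-values of 0.289 or more. For diet in Ts65Dn these were Tuba1c (−2.14, SE 0.98), a tubulin gene, and Camk4 (−2.01, SE 0.78), a kinase of stathmin. For diet in 2N they were Tuba1a (−0.50, SE 0.34), Ppp2r2a (−0.68, SE 0.40), Tbcd (−0.96, SE 0.55), a tubulin-folding cofactor, and Zdhhc15 (4.25, SE 2.47). The value of Zdhhc15 rests on supplemented 2N replicate 4, with 130 counts. Replicates 1 to 3 of that group had 0 counts, and control-diet 2N libraries had at most 6. For genotype on the supplemented diet the genes with the lowest p were Tuba1c (−2.42, SE 1.06), Ppp2ca (−0.58, SE 0.28), the catalytic subunit of a tau phosphatase, Map7 (0.76, SE 0.33) and Tardbp (−0.32, SE 0.43), whose protein guards the splicing of stathmin RNA in human neurons. For the interaction they were Tuba4a (0.85, SE 0.53), Ppp2cb (−1.88, SE 1.07), Dclk2 (1.24, SE 0.55) and Pak1 (0.59, SE 0.50). Tuba1c had 0 counts in supplemented Ts65Dn replicates 2, 5 and 6, control-diet Ts65Dn replicate 4 and supplemented 2N replicate 1. Its other expected counts and those of Tuba1a were not whole numbers in any library. As for Stmn1, values of these tubulin genes carry the uncertainty of divided reads. Dyrk1a, a tau kinase gene carried on the extra segment of Ts65Dn and named here after its values were seen, had a difference of 0.79 (SE 0.29, edgeR adjusted p = 0.224) on the control diet and of 0.23 (SE 0.31, edgeR adjusted p = 0.98) on the supplemented diet.

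Across the 24 libraries, after subtraction of the group means, Map1a and Map1b resembled each other most among the 10 (Pearson r = 0.796, Spearman rho = 0.796 on log2 CPM). Map1b ranked 7 among all tested genes in likeness to Map1a. The closest protein-coding genes to Map1a were Kif1a (r = 0.862), an axonal kinesin, and Nefm (r = 0.831), a neurofilament subunit. Map1b was closest to Atp5b (r = 0.884), a subunit of ATP synthase. Stmn3 was closest to Ptch1 (r = 0.844) and Tuba4a (r = 0.842), Stmn2 to Cox8a (r = 0.784) and Klhl1 (r = 0.768), and Stmn4 to Slc8a3 (r = 0.804) and Selenoo (r = 0.798). Map2 was closest to Tatdn1 (r = 0.831) and Rnf103 (r = 0.821), Map4 to Frmpd4 (r = 0.850) and Cplx1 (r = 0.803), Map6 to Sin3b (r = 0.702) and Rmdn3 (r = 0.695), and Mapt to Pcna (r = 0.798) and Erich1 (r = 0.738). Mapt resembled no other of the 10 above r = 0.412 (Stmn4, in both directions). Among the 10, the closest was Map1b for Stmn1 (r = 0.677), Map4 (r = 0.644) and Stmn2 (r = 0.619), Stmn1 for Map2 (r = 0.654), Map1a for Map6 (r = 0.637) and Stmn2 for Stmn3 (r = 0.506). Stmn1 was closest to Tacr1 (r = 0.931) and Nol11 (r = 0.890), but without the 2 low-complexity libraries these were 0.704 and 0.556. On log2(TPM + 1) several of these were lower, with 0.341 for Stmn3 and Ptch1, 0.330 for Map6 and Sin3b, 0.475 for Stmn4 and Selenoo and 0.487 for Mapt and Erich1. Others were higher on that scale, with 0.911 for Map1a and Map1b, 0.866 for Stmn1 and Map1b, 0.801 for Map2 and Stmn1 and 0.610 for Mapt and Stmn4. Of 90 such values under other settings, 29 moved by 0.1 or more. The closest gene is a maximum over many, the points share depth and cell make-up, and these values are descriptions only.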

How the data were processed

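RNA was measured in 24 libraries, 1 per mouse, made with a stranded low-input total RNA kit and read as single reads of 50 bases, per the labels. Per the submitters' processing notes, Trimmomatic 0.39, STAR and RSEM were used, the last 2 without a version. The notes name GRCm39 and mm10 without roles, so no genome coordinates are printed. The authors' series table gives unnormalized RSEM expected counts, equal in all 24 columns to the deposited per-sample files. Those also hold deposited TPM, used for levels between genes, deposited FPKM, not used for any value here, and the authors' abundance-weighted transcript length in bases.

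Expected counts were rounded, genes kept by filterByExpr (minimum count 10), scaled with TMM factors and tested in 1 quasi-likelihood fit of all 24 libraries without covariate (edgeR 4.0.16, R 4.3.3); CPM are TMM-scaled. Intervals are 95%. Transcript lengths were tested on log2 values with limma 3.58.1 over 4478 genes with at least 20 counts in every library. Both scripts were tested on simulated data. All tests are two-sided. Alternatives included DESeq2 1.42.0, limma on log2(TPM + 1), other scalings and filters, covariates and left-out libraries. Symbols matched 52081 identifiers; coding sequences are from GENCODE M21. Named genes are the 10, every called gene of the partner lists (none) or else the one with the lowest p, and for each of the 10 the 2 protein-coding genes and the other one of the 10 closest by correlation. One gene so chosen is not reported here. The 10 genes and all lists were chosen with earlier results of these data known. No label gives the litter, so p-values treat animals as independent although diet was given to dams. Counts carry no molecular identifiers.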

Additional observations from a re-analysis of the deposited data

Results flagged for a closer look

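In each of 40 sets, 1 gene in 1 group, the highest and lowest libraries were examined, and 2 sets had a library far from the rest; chance gives such a gap in about 1 of 20 sets. Both were control-diet Ts65Dn replicate 3, the library with the fewest counts. Stmn1 stood there at a log2 CPM of 3.62, against 6.44 in the next lowest library of the group. Map2 stood at 10.21, against 10.66 in the next lowest.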

How the results depend on the processing

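Over 50 fitted differences (10 genes in 5 comparisons) and 44 settings, 4 of 1640 alternatives passed the threshold. With no filter on low counts, 2 genes were called for genotype on the control diet (Map1a at −0.36 and Map1b at −0.35) and 1 for genotype on the supplemented diet (Map1b at −0.37). Of the 39538 genes tested without the filter, 256 and 200 were called in these 2 comparisons. Without supplemented Ts65Dn replicates 2 and 5 and the 2 low-complexity libraries, an alternative chosen after seeing the data, 1 gene was called for diet in Ts65Dn (Stmn1 at −1.16). Of all genes tested in that alternative, 173 of 19355 were called. In every other setting run, including each left-out library, 0 of 10 were called. Signs were less stable: 31 of the 50 differences changed sign at least once and 19 did not, with 121 changes in all, none of a called value. Of all genes, 67 were called for genotype on the control diet, 256 with no filter, 326 with DESeq2 and 0 with limma on TPM; the same 4 counts were 36, 200, 410 and 38 for genotype on the supplemented diet, 26, 218, 236 and 13 for diet in Ts65Dn, 1, 33, 212 and 0 for diet in 2N, and 1, 125, 268 and 0 for the interaction. No paired analysis was possible because replicate numbers follow accession order and no label links animals of different groups. On the TPM scale the median of all genes shifted to −0.28 and −0.40 for genotype on the control and supplemented diets. Mean expected counts of the genes ran from 543.2 (Stmn4) to 48150 (Map1b), with Stmn1 down to 27.7 in 1 library. The part of read sampling in the spread between libraries was not tested.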

Other observations

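The summed level of the 10 genes differed between the scales. In CPM the group means were 13400 ± 1909 for control-diet 2N, 10950 ± 1986 for control-diet Ts65Dn, 12750 ± 1223 (SD, n = 4) for supplemented 2N and 10540 ± 1724 for supplemented Ts65Dn. In TPM they were 3690 ± 733.4, 2501 ± 871.1, 3300 ± 372.3 and 1740 ± 886.6. Map1a and Map1b make up most of the CPM sum. On the TPM scale the median over all tested genes was itself lower in supplemented Ts65Dn than in supplemented 2N, by a log2 difference of −0.40.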
